A study of Mus musculus with 8 samples.

Results

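The genes of glycolysis and lactate handling were followed in primary cultures of activated mouse microglia. They were chosen by symbol, 32 in all, from the glucose transporters to the lactate transporters with the neighbouring pentose phosphate and pyruvate dehydrogenase genes, and a symbol had to be present in both deposited tables. All 32 symbols were found. They correspond to 33 gene models of the 30302 genes held by both tables, because Aldoa names a second, weakly counted model beside the usual one.

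RNA sequencing covered 8 libraries of wild-type primary cultures labelled as microglia. Per the methods of the study the cells came from the striatum of C57/BL6 pups a few days old and grew for 15 days. They were then exposed to 0.01% lipopolysaccharide (LPS) and 0.002% interferon-γ, listed as human, over 48 h. Every library of both groups thus carries that activation. The labels give the time as day 3. The ligands were given 24, 32 and 40 h into that exposure, each at 200 nM per the methods of the study. Going by the titles, 4 libraries received SCH 58261, an antagonist of the adenosine A2A receptor (antagonist group), and 4 received SCH 58261 together with 200 nM 2-Cl-IB-MECA, an agonist of the adenosine A3 receptor (dual group). In the labels, the field for treatment gives the reverse, with 2-Cl-IB-MECA listed for the libraries titled with SCH 58261 alone and missing from those titled with both ligands. The grouping used here is that of the titles and column names, and each direction below rests on it. Nothing in the labels says which libraries came from separate cultures or litters, so the p-values measure the spread between these samples, which may be technical in part.

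Glycolysis splits glucose into pyruvate in the cytosol and yields ATP without oxygen. Lactate dehydrogenase converts pyruvate to lactate, which leaves the cell through monocarboxylate transporters, and pyruvate dehydrogenase opens the other route into the mitochondrion. Macrophages and microglia are known to rely more on glycolysis after stimulation with LPS, and the hypoxia-inducible factor HIF-1 is a known activator of many genes of the pathway.

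Total counts ranged from 32630602 to 45878639 per library, with 26155 to 26809 genes detected. The microglial markers Csf1r, at 42.9 to 49.6 FPKM (fragments scaled by gene length and library depth), and C1qa, at 368 to 479.8 FPKM, were abundant, but so was the astrocyte marker Gfap at 365 to 410.0 FPKM, and Tmem119 and P2ry12, markers of resting microglia, stayed between 2.74 and 3.55 and between 0.573 and 0.98 FPKM. The summed level of 8 astrocyte markers was 992 to 1036 FPKM in the antagonist group and 1006 to 1075 in the dual group, against 599 to 673 and 552 to 588 for 10 microglial markers. RNA of other cell types was thus present, and in bulk samples fewer cells of a type and less RNA per cell cannot be told apart. The methods of the study report a high purity of microglia from anti-CD11b labelling, which counts cells, whereas the values here are RNA levels.

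Before the values, the DNA in front of 4 of the genes, picked by hand, is shown. Slc2a6 and Ldhb had the smallest p-values between the groups. Ldha and Pgk1 carry the core of the hypoxia response element, ACGTG, within the stretch shown. Each line gives the 150 bases before the start of the RefSeq transcript (GRCm38.p6), read 5′ to 3′ on the strand of the gene, and capitals mark ACGTG, or CACGT where the motif lies on the other strand.
Slc2a6: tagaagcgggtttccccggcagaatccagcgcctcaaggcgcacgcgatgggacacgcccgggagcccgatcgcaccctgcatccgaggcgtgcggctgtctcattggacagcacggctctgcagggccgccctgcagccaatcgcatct
Ldhb: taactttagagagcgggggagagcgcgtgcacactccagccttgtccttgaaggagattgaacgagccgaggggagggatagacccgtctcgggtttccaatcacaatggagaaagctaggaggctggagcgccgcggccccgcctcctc
Pgk1: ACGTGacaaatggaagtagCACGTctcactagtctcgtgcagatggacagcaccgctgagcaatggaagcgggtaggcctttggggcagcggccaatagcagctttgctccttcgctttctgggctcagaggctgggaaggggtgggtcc
Ldha: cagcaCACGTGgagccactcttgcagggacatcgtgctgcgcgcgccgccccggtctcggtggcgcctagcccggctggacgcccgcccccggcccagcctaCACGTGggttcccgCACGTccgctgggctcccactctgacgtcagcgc
The stretch of Slc2a6 lies at chr2:27027999-27028148 on the minus strand and that of Ldhb at chr6:142507958-142508107 on the minus strand, and neither contains the 5 letters. That of Pgk1, at chrX:106186950-106187099 on the plus strand, holds 2 capital stretches. That of Ldha, at chr7:46845654-46845803 on the plus strand, holds 3, and in 2 of these the match on one strand overlaps a match on the other. The Ldha stretch lies within the gene model of the deposited tables, which runs from 46841475 to 46855627, and the other 3 lie outside theirs.

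Promoter windows of 300 bases, 250 before the start and 50 after it, were available for 31 of the 32 symbols, Slc2a3 being the other. ACGTG occurred on either strand in at least 1 window of 17 of the 31 symbols (54.8%), against 21.8% of the 27025 symbols with a window. A symbol can have several windows, and more windows give more room for a match. Counted by window, it occurred in 21 of 46 (45.7%), against 19.6% of all 32851. The 17 included Hk1, Hk2, Pfkm, Pfkfb3, Aldoa, Pgam1, Pkm, Slc16a1, Slc16a3 and Hif1a itself, whereas Eno1, Tpi1, Gpi1, Pdk1 and Tkt were among the 14 without it. Of the 6 models with an unadjusted p-value under 0.05 in edgeR, Slc2a1, Slc16a3 and Pfkfb2 had the motif in a window. Slc2a6, Ldhb and Tkt did not. The member windows were also richer in G and C, with a median of 61% against 52.7% over all 32851 windows. A match is a description of the letters, and its absence says only that they are not in the window.

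Levels of different genes were compared per length, in the FPKM deposited by the authors. The length takes in the exons of all transcripts of a gene model, also those outside its protein-coding transcripts. The order between genes therefore depends on the lengths used. Pkm was the highest and Aldoa the next. Pyruvate kinase Pkm, which makes pyruvate and ATP in the last step, was at 333 to 359 FPKM over the 8 libraries, and aldolase Aldoa, which splits the 6-carbon sugar, at 306 to 343. They were followed by lactate dehydrogenase Ldha (243 to 257 FPKM), phosphoglycerate kinase Pgk1 (235 to 252), Ldhb (211 to 250), the lactate transporter Slc16a1, known as MCT1 (194 to 225), and triose phosphate isomerase Tpi1 (185 to 199). The pyruvate dehydrogenase kinases, which switch pyruvate dehydrogenase off, were low, Pdk1 at 4.92 to 5.50 FPKM and Pdk4 at 2.79 to 3.32. Pfkfb4 and Slc2a3 lay between these, at values given below. Pfkfb2, one of the enzymes that make or remove fructose 2,6-bisphosphate, was at 2.39 to 2.93 FPKM, and the second Aldoa model was the lowest at 0.756 to 1.79. In the order of mean FPKM, 23 of the 32 neighbouring pairs overlapped in their library values, so much of the fine order is not resolved.

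**Figure D1:**
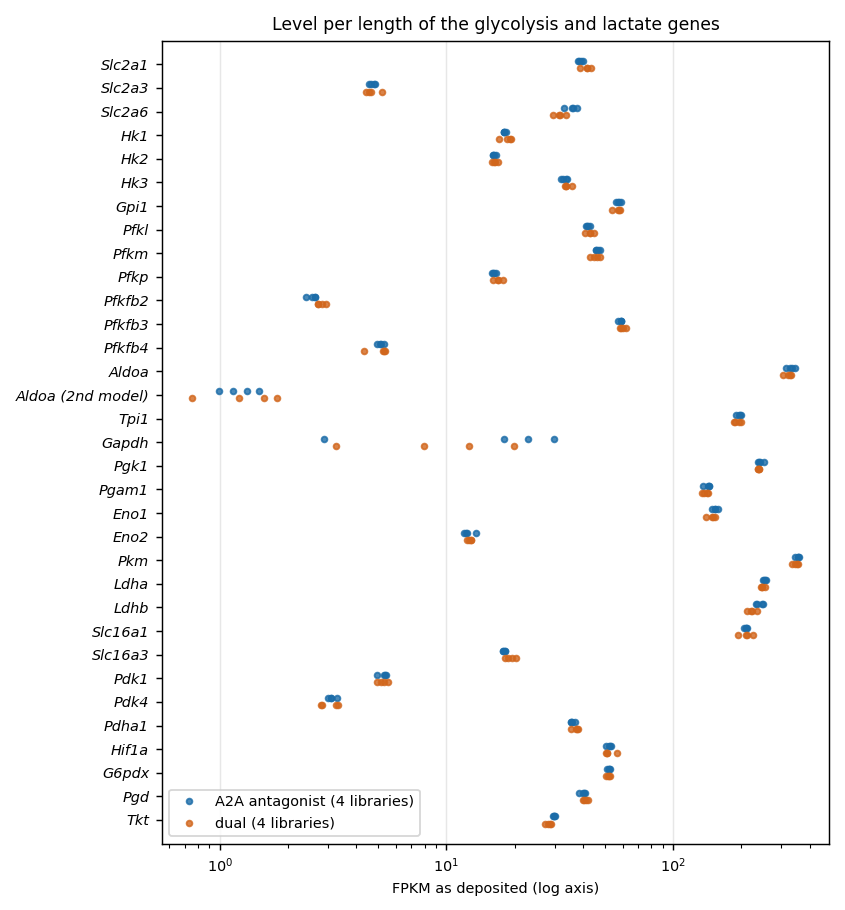
FPKM of each gene model as deposited (log axis), with 1 point per library, blue for the 4 antagonist and orange for the 4 dual libraries, genes in pathway order. The points of both groups lie on top of each other for nearly all genes, from Pkm at 333 to 359 to Pfkfb2 at 2.39 to 2.93, and only Gapdh (2.90 to 29.9) and the second Aldoa model spread widely.

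The isozymes that share a step differed in FPKM. Of the 3 hexokinases, which trap glucose as glucose 6-phosphate, Hk3 was the highest per length at 31.9 to 35.9 FPKM, above Hk1 (17.1 to 19.2) and Hk2 (15.9 to 16.8), whose values did not overlap. Among the phosphofructokinase subunits, which catalyse the committed step, Pfkm (43.1 to 47.6 FPKM) and Pfkl (40.9 to 44.6) overlapped and Pfkp was lower (16.0 to 17.8). This order rests on the lengths used, 3340 bases for Pfkm, 6675 for Pfkl and 13401 for Pfkp. In raw counts, not divided by length, Pfkp was above Pfkm in each library (7419 to 11022 against 5083 to 7268), and Pfkl was above both. Pfkfb3, whose product raises fructose 2,6-bisphosphate and so activates phosphofructokinase, was at 57.2 to 62.1 FPKM, whereas Pfkfb4 was at 4.31 to 5.37. The ubiquitous enolase Eno1 (139 to 158 FPKM) was far above Eno2, the neuronal form (12 to 13.5). Eno1b, a model that shares sequence with Eno1, was at 151 to 172 FPKM, so the level of Eno1 is less certain. Of the glucose transporters, Slc2a1 (GLUT1) at 37.9 to 43.3 FPKM and Slc2a6 (GLUT6) at 29.6 to 37.6 stood well above Slc2a3 (GLUT3) at 4.42 to 5.20.

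Between cells given both ligands and cells given the A2A receptor antagonist alone, these genes differed little. In the edgeR quasi-likelihood test over 18756 genes, 0 of the 33 models were called at an adjusted p-value under 0.05, where 0.208% of all genes tested were called (39 genes, 0.048% higher and 0.16% lower). The smallest adjusted p-value among them was 0.0913, for Slc2a6. Without adjustment, 6 of 33 (18.2%) had a p-value under 0.05, beside 12.8% of all genes, with 3 higher in the dual group (5.98% of all genes) and 3 lower (6.81%). The DESeq2 Wald test called 2 of them, Slc2a6 and Ldhb, with a background of 3.37% of the 11313 genes given an adjusted p-value.

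Sizes were small as well. Of the 33 log2 fold changes (dual over antagonist), 15 were positive and 18 negative, with a median of -0.0073, beside 0.0038 over all genes tested, and 28 were under 0.1 in absolute value. The median absolute log2 fold change was 0.033 for these genes and 0.072 over all genes tested. These medians are not matched for level: 32 of the 33 models had a mean of at least 10 counts per 1000000, as did 10534 of the 18756 genes tested. The 95% interval of the fold change lay within 1.25-fold in either direction for 31 models, the exceptions being Gapdh and the second Aldoa model. The CPM values (counts per 1000000 counts of the genes tested, scaled between libraries) of the groups did not overlap for 3 models (9.09%), against 7.42% of all genes: Pfkfb2 and Slc16a3 were higher (3.36% of all genes) and Tkt lower (4.06%).

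**Figure D2:**
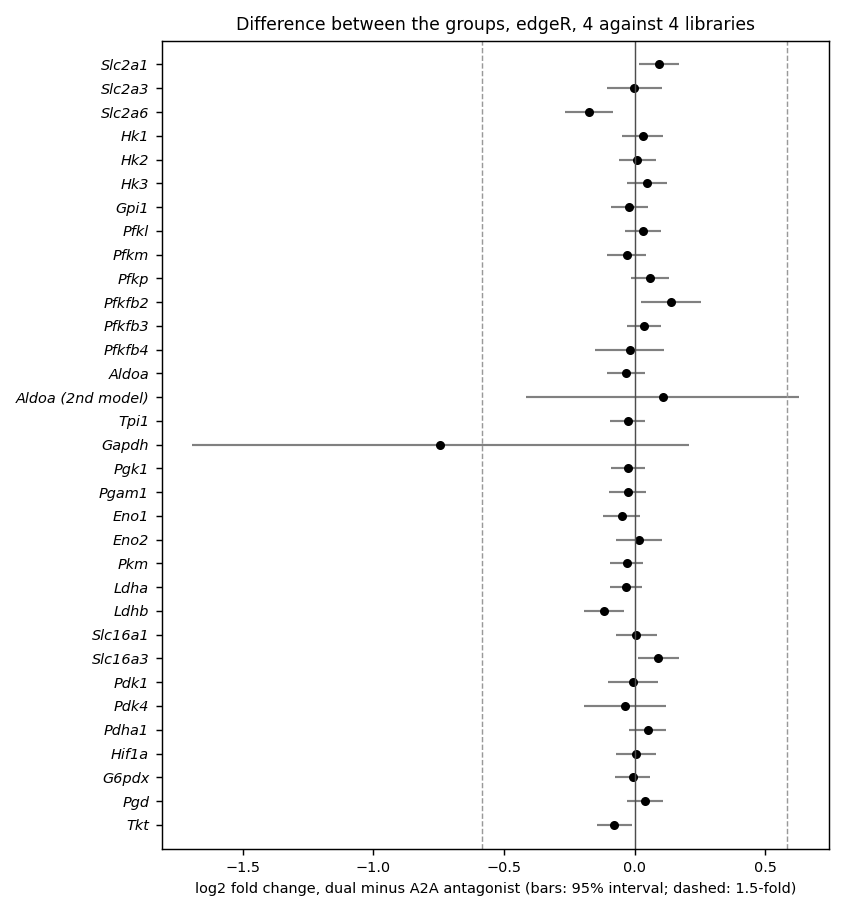
Log2 fold change of each gene model, dual over antagonist, from edgeR on 4 against 4 libraries (points) with its 95% interval (bars); dashed lines mark 1.5-fold. Nearly all points sit within 0.1 of 0 with short bars, Slc2a6 (-0.18) and Ldhb (-0.12) lie to the left and Pfkfb2 (0.14) to the right of 0, and Gapdh (-0.74) has by far the longest bar.

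The largest difference apart from Gapdh was that of Slc2a6. Slc2a6 (ENSMUSG00000036067, chromosome 2, 27021363 to 27027998, minus strand) encodes GLUT6, a member of the facilitative hexose transporter family. It had 107, 117, 115 and 122 CPM in antagonist libraries 1 to 4 and 103, 109, 101 and 95.8 CPM in dual libraries 1 to 4. The dual libraries were the lower ones, but the ranges overlapped, since antagonist library 1 lay below dual library 2. The means were 115 ± 5.92 and 102 ± 5.35 CPM (SD, n = 4 each), the log2 fold change was -0.18 (SE 0.04, 95% interval -0.27 to -0.083), and the adjusted p-value was 0.0913 in edgeR. The gene was past the threshold in 3 alternatives, namely in the DESeq2 Wald test (adjusted p-value 0.0120), in edgeR without the low-count filter (0.00838, where 1.17% of all genes were called) and in edgeR without antagonist library 1 (0.0303), and over all alternatives the adjusted p-value ranged from 0.00838 to 0.284. Slc2a6 shares no 31-base word with another gene and overlaps no other exon, so these counts are not divided with a copy.

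The main glucose carrier Slc2a1 leaned the other way. Its CPM were 134, 138, 142 and 135 with the antagonist and 153, 147, 147 and 138 with both ligands, and dual library 4 lay within the antagonist values. The log2 fold change was 0.093 (SE 0.04, 95% interval 0.015 to 0.17) with an adjusted p-value of 0.291 in edgeR. Slc2a1 shares 105 exonic bases with Gm12868 on the opposite strand. Slc2a3, with 34.3 ± 0.841 and 34.4 ± 2.50 CPM (SD, n = 4 each), had a log2 fold change of -0.0012 (SE 0.05).

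Within a library, the FPKM of Slc2a6 was 0.874, 0.928, 0.891 and 0.982 times that of Slc2a1 in the antagonist libraries. In the dual libraries it was 0.732, 0.808, 0.753 and 0.760 times. All 4 dual values lay below all 4 antagonist values, and the means were 0.919 ± 0.0476 and 0.763 ± 0.0322 (SD, n = 4 each). This ratio does not depend on how the libraries were scaled. Its size depends on the gene lengths used, 3211 bases for Slc2a6 and 3506 for Slc2a1. Of the 10 pairs of members for which such a ratio was taken it was the one whose groups did not overlap, and no test was run on the ratios.

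**Figure D3:**
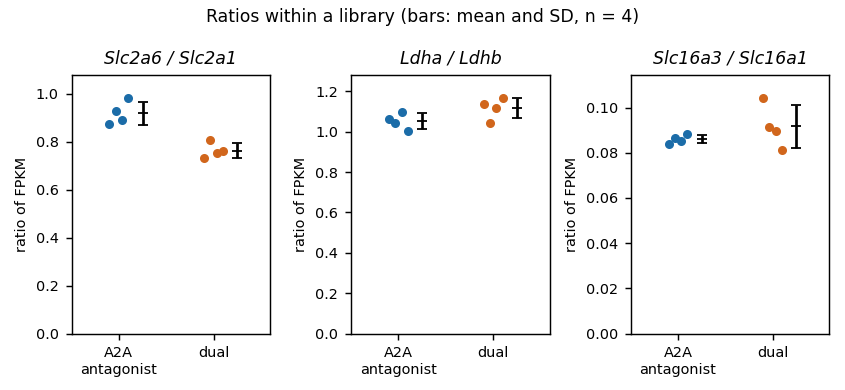
FPKM ratios within a library (vertical axes, from 0), with 1 point per library, blue for the antagonist and orange for the dual group, and black bars for mean and SD (n = 4). For Slc2a6 over Slc2a1 the dual points (0.732 to 0.808) lie below the antagonist points (0.874 to 0.982), whereas the points of Ldha over Ldhb and of Slc16a3 over Slc16a1 overlap.

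The hexokinases and the upper steps differed little. Hk1 had 155 ± 1.61 CPM with the antagonist and 159 ± 8.24 CPM with both ligands (SD, n = 4 each), with a log2 fold change of 0.032 (SE 0.04). Hk2, the inducible form bound to mitochondria, had 97.4 ± 1.51 and 98.1 ± 2.21 CPM, and Hk3, the form of blood and immune cells, 123 ± 3.83 and 127 ± 4.64 CPM (SD, n = 4 each). The FPKM ratio of Hk2 to Hk1 was 0.897 ± 0.0176 and 0.885 ± 0.0458 (SD, n = 4 each), with overlapping values. Glucose 6-phosphate isomerase Gpi1 had a log2 fold change of -0.020 (SE 0.03).

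The phosphofructokinase subunits had log2 fold changes of 0.033 for Pfkl, -0.031 for Pfkm and 0.060 for Pfkp. The last had a 95% interval of -0.013 to 0.13, and its exons overlap Pitrm1 on the opposite strand by 748 bases. Among the enzymes of fructose 2,6-bisphosphate, Pfkfb2 was the one with separate groups. It had 19.2, 17.4, 18.6 and 19.3 CPM with the antagonist and 19.8, 19.9, 20.7 and 21.4 CPM with both ligands, so every dual library was above every antagonist library, by a narrow margin. The log2 fold change was 0.14 (SE 0.05, 95% interval 0.022 to 0.25) with an adjusted p-value of 0.290 in edgeR, and Pfkfb2 has 27.0% of its 31-base words in common with other genes, most of them in the overlapping model Gm29427, which had 3 to 7 counts per library. Pfkfb3, the most abundant form, had 445 ± 5.60 and 456 ± 13.7 CPM (SD, n = 4 each), at a log2 fold change of 0.035 (SE 0.03). Pfkfb4 had a log2 fold change of -0.018 (SE 0.06).

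The lower part of the pathway was nearly level between the groups. Aldoa had 967 ± 33.8 CPM with the antagonist and 945 ± 34.9 CPM with both ligands, and Pkm 1782 ± 27.3 and 1745 ± 48.3 CPM (SD, n = 4 each). Tpi1, Pgk1, the mutase Pgam1 and Pkm had log2 fold changes between -0.030 and -0.024, and Aldoa of -0.033. Eno1, which makes phosphoenolpyruvate, had 828 ± 20.1 and 800.0 ± 31.5 CPM (SD, n = 4 each) and a log2 fold change of -0.049 (SE 0.03, 95% interval -0.12 to 0.021). Eno2 had 59.4 ± 3.19 and 60.0 ± 1.06 CPM (SD, n = 4 each). The second Aldoa model (ENSMUSG00000114515, chromosome 7, 126800790 to 126809108) was counted 27 to 66 times per library, and its 95% interval of -0.42 to 0.63 leaves its difference unresolved at this depth.

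Gapdh, the dehydrogenase in the middle of the pathway (ENSMUSG00000057666, chromosome 6, 125161715 to 125166467, minus strand), behaved unlike its neighbours. It had 12.1, 95.5, 74.7 and 124 CPM in antagonist libraries 1 to 4 and 33.2, 13.6, 82.5 and 52.5 CPM in dual libraries 1 to 4, from 466 to 5646 counts. The lowest and highest libraries both belonged to the antagonist group, and the dual values lay between them. The log2 fold change was -0.74 (SE 0.45, 95% interval -1.69 to 0.21) with an adjusted p-value of 0.523 in edgeR, and leaving out single libraries moved it between -1.21 (without dual library 3) and -0.41 (without antagonist library 4). The coefficient of variation within groups, averaged over the groups, was 63.4%, the largest of the 10534 genes with a mean of at least 10 CPM. The next was at 51.5% and the median at 4.48%. The other 31 of these glycolysis and lactate models at that level ranged from 1.38% (Ldha) to 7.31% (Pfkfb4).

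Gapdh is also among the genes whose counts are least certain. Some 62.6% of its 31-base words are found in 329 other genes, and 97 genes hold at least 10% of them, 89 of which are in the table. Of these, the processed pseudogene Gm13394 held 12161 to 16832 counts per library, more than Gapdh itself in each library. Its level was 331 to 373 CPM. The 89 copies summed to 414 ± 5.62 CPM with the antagonist and 403 ± 18.2 CPM with both ligands (SD, n = 4 each), with a coefficient of variation of 3.33%, so the spread of Gapdh was not mirrored in them. Gapdh with its copies came to 419.6 to 537.9 CPM in the antagonist and 419 to 494 CPM in the dual group. Pgk1, which shares 68.3% of its words, mostly with Pgk1-rs7, had a coefficient of variation of 2.22%, and Eno1, which shares 53.5%, had 3.27%. Unlike Gm13394, Pgk1-rs7 held few counts, 236 to 326 per library beside 17695 to 24431 for Pgk1. The 4 copies of Eno1 summed to 535 ± 11.5 CPM with the antagonist and 520 ± 31.4 CPM with both ligands (SD, n = 4 each). Whether the counting accounts for the spread of Gapdh was not tested.

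**Figure D4:**
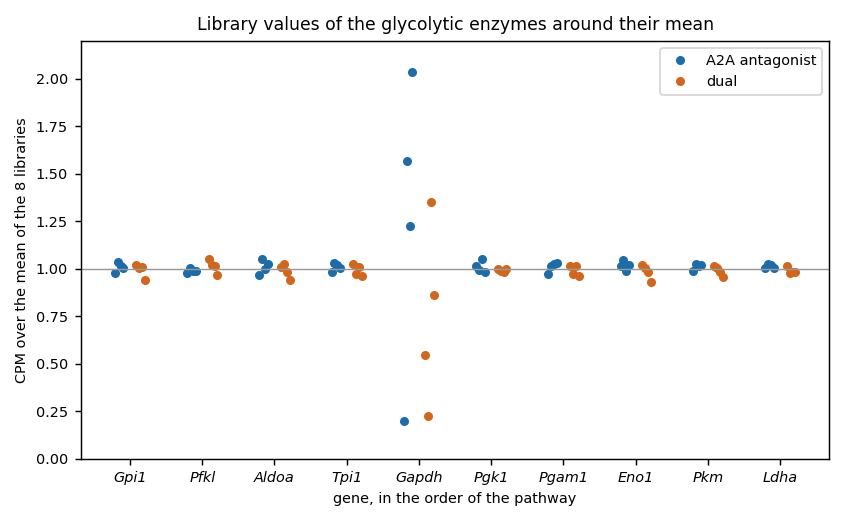
CPM of 10 enzymes in pathway order, each divided by its mean over the 8 libraries (vertical axis), with 1 point per library, blue for antagonist and orange for dual. The points of Gapdh run from under 0.25 to over 2, whereas those of the other 9 enzymes stay close to 1.

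Both lactate dehydrogenases had negative log2 fold changes, and neither was called. Ldha, the form that favours lactate production, had 844 ± 9.31 CPM with the antagonist and 825 ± 13.3 CPM with both ligands (SD, n = 4 each), at a log2 fold change of -0.033 (SE 0.03, 95% interval -0.093 to 0.027). Ldhb (ENSMUSG00000030246, chromosome 6, 142490249 to 142507957, minus strand), the form that favours the use of lactate, had 373, 389, 366 and 395 CPM in the antagonist libraries and 352, 369.6, 348 and 334 CPM in the dual libraries. The dual libraries were lower apart from library 2, which lay above antagonist library 3. The means were 381 ± 13.5 and 351 ± 14.8 CPM (SD, n = 4 each), with a log2 fold change of -0.12 (SE 0.04, 95% interval -0.19 to -0.042) and an adjusted p-value of 0.162 in edgeR. It was past the threshold in the DESeq2 Wald test (0.0419), and the adjusted p-value ranged from 0.0419 to 0.419 over the alternatives. Ldhb shares 33% of its 31-base words with the copy Gm5514, which had 143 to 249 counts per library. The FPKM ratio of Ldha to Ldhb was 1.05 ± 0.0392 with the antagonist and 1.12 ± 0.0517 with both ligands (SD, n = 4 each), with overlapping values.

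Of the lactate transporters, Slc16a3 (MCT4), the exporter of glycolytic cells, had 95.7, 96.8, 95.2 and 97.3 CPM with the antagonist and 108, 104, 100.2 and 97.6 CPM with both ligands. Every dual library was above every antagonist library, library 4 only just. The log2 fold change was 0.090 (SE 0.04, 95% interval 0.012 to 0.17) with an adjusted p-value of 0.306 in edgeR. Slc16a1 had 947, 929, 932 and 917 CPM with the antagonist and 864, 947, 928 and 1003 CPM with both ligands, and the dual libraries surrounded the antagonist values. The log2 fold change of Slc16a1 was 0.0066 (SE 0.04).

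At the gate to the mitochondrion, Pdk1 and Pdk4 had log2 fold changes of -0.0074 (SE 0.05) and -0.038 (SE 0.07). Pdha1, the catalytic subunit that these kinases phosphorylate, had 135 ± 2.55 and 139.7 ± 4.25 CPM (SD, n = 4 each), at a log2 fold change of 0.049 (SE 0.03, 95% interval -0.022 to 0.12), and it overlaps Map3k15 on the opposite strand. Hif1a, the oxygen-regulated subunit of HIF-1, had 309 ± 6.02 and 310.2 ± 17.1 CPM (SD, n = 4 each), with a log2 fold change of 0.0052 (SE 0.04). Its activity is regulated mainly through protein stability, which RNA counts do not show.

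In the pentose phosphate pathway, which branches off at glucose 6-phosphate and supplies NADPH, the first dehydrogenase G6pdx had 161 ± 2.55 and 161 ± 2.64 CPM, and the second, Pgd, 259 ± 7.71 and 266 ± 5.68 CPM (SD, n = 4 each). Transketolase Tkt, which returns carbon to glycolysis, had 219, 221, 222 and 219.7 CPM with the antagonist and 208, 212, 214 and 201 CPM with both ligands. All dual libraries were below all antagonist libraries, and the antagonist libraries lay very close together. The log2 fold change was -0.078 (SE 0.03, 95% interval -0.14 to -0.012) with an adjusted p-value of 0.299 in edgeR.

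Some libraries tended to the edge of their group over the whole set of genes. Dual library 4 had the lowest CPM of its group in 19 of the 33 models (57.6%, beside 29.1% of all genes tested), among them Hk1, Gpi1, Pfkl, Pfkm, Aldoa, Tpi1, Pgam1, Eno1 and Pkm, while it was the highest for Hif1a, Slc16a1 and Pfkfb2. Dual library 1 was the highest in 17 models (51.5%, beside 26.9%). In the antagonist group, library 1 was the lowest in 16 models (48.5%, beside 27.2%). Within one library these genes share the same scaling and are not independent. Without dual library 4 the median log2 fold change of the members was 0.0035, and without dual library 1 it was -0.029.

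Other genes of the same pathways were counted in the same fit. Of 58 such genes (other isozymes, transporters, mitochondrial pyruvate carriers, pyruvate dehydrogenase and gluconeogenic genes), 56 were in the table and 48 were tested, with 0 called in edgeR, 0 called among the 35 given an adjusted p-value in DESeq2 and a median log2 fold change of -0.0099. With an unadjusted p-value under 0.05, 1 gene was higher, Pdpr, the regulatory subunit of pyruvate dehydrogenase phosphatase (log2 fold change 0.14, adjusted p-value 0.145), and 1 lower, Pck2, the mitochondrial phosphoenolpyruvate carboxykinase (-0.13, 0.233). Slc2a4 (GLUT4) had the next smallest p-value, with -0.27 and an adjusted p-value of 0.398. Of 24 regulators and targets of HIF, 23 were tested and 0 were called in edgeR, with a median of 0.0034, and DESeq2 called 1 of the 21 it gave an adjusted p-value, Ero1l. Ero1l, a disulfide-forming oxidase of the endoplasmic reticulum (0.18, adjusted p-value 0.110), and Bnip3, a mitophagy receptor (0.13, 0.298), were the 2 with an unadjusted p-value under 0.05, both higher, and the lipid droplet gene Plin2 (-0.064, 0.440) came next.

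Among the markers of cell types, C1qa, a complement gene of microglia, was called lower in the dual group (log2 fold change -0.24, adjusted p-value 0.0240 in edgeR), and the summed microglial level given above did not overlap between the groups. C1qa makes up most of that sum: of the 10 microglial markers 4 were higher and 6 lower, and Csf1r was higher (0.11, unadjusted p-value 0.00522 and adjusted 0.171 in edgeR). The summed oligodendrocyte level was 191 to 206 FPKM with the antagonist and 173 to 191 with both ligands, and the fibroblast level 280.5 to 315 and 281 to 352. Their part in the differences of Slc2a6 and Ldhb was not tested.

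The antagonist libraries were also set against activated cells given vehicle, which are no samples of this series. An effect of SCH 58261 thus cannot be told apart here from a difference between cultures or batches. The authors' control mean of normalised counts was used, without an SD, a number of libraries or a test. None of the 33 models was past 1.5-fold in either direction, where 14.6% of the 18860 genes compared were (3.7% higher and 10.9% lower). Those genes were not matched to the models for level. The median ratio of antagonist to control mean was 1.06 for these genes and 1.01 over all genes compared. All 4 antagonist libraries lay above the control mean for 19 models (57.6%, beside 33.8% of all genes) and below it for 5 (15.2%, beside 32.8%).

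The 5 models over 1.2-fold of the control mean were 15.2% of the members, near the 14.9% of all genes. Slc2a3, the highest, had 1435, 1461, 1517 and 1505 normalised counts in the antagonist libraries, against the authors' control mean of 1088, a ratio of 1.36. Slc2a6 had 4604, 5059, 4979 and 5243 against 3730 (1.33). Ldhb had 15988, 16844, 15798 and 17036 against 12637 (1.30), and Slc16a1 39573 to 40643 against 32402 (1.24). The second Aldoa model was the remaining one (1.30). For all 5 each antagonist library was above the control mean, whereas Slc2a1 was at 1.04 and Slc16a3 at 0.928.

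In the core pathway the ratios to the control mean were 1.196 for Tpi1, 1.18 for Pfkl, Pfkm and Eno1, 1.13 for Eno2, 1.09 for Aldoa, 1.08 for Pfkfb3, 1.07 for Pkm and 1.07 for Gpi1, with all 4 libraries above it. Libraries lay on both sides of it for Pgk1 (1.02), Hk1 (1.01), Pgam1 (0.996) and Pfkp (0.992), and likewise for Hif1a (1.02). The 5 genes with all 4 libraries below the control mean were Pdha1 (ratio 0.854), Hk3 (0.897), Slc16a3 (0.928), Hk2 (0.938) and Ldha (0.967). For Pdha1 the libraries had 5949, 5751, 5823 and 5762 normalised counts against 6815. Gapdh was at 0.770 of the control mean, but its libraries ran from 0.121 to 1.25 of it. It was the single model under 1/1.2 of the control mean, beside 21.9% of all genes.

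**Figure D5:**
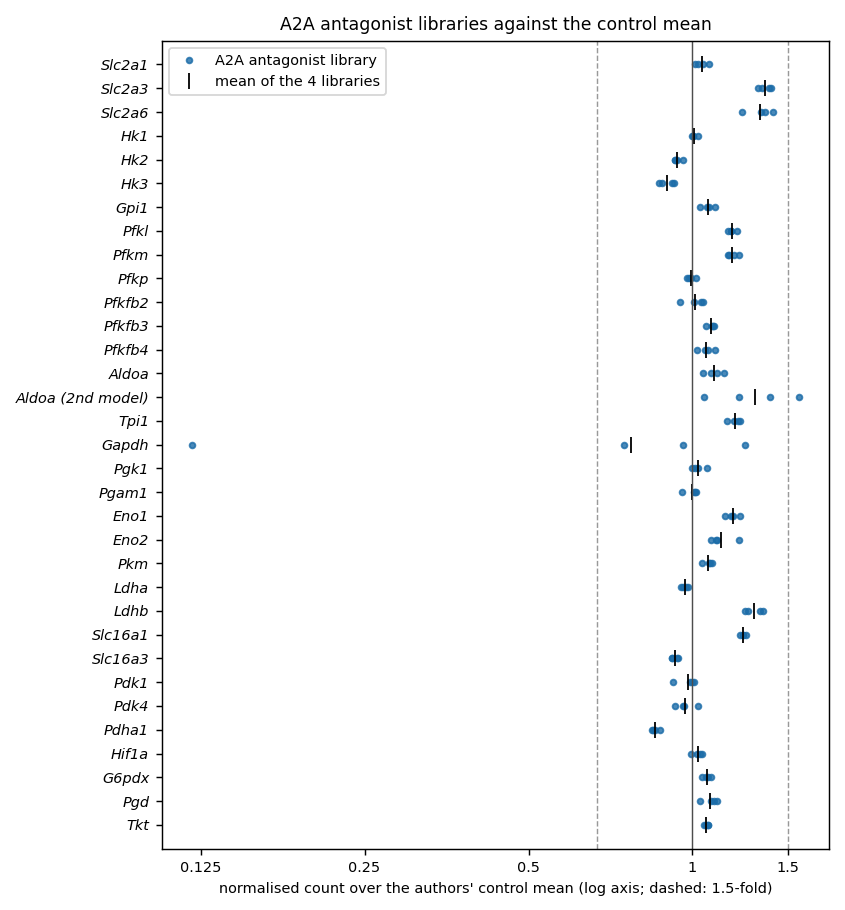
Normalised counts of the 4 antagonist libraries divided by the authors' control mean (log axis), with 1 blue point per library and a black tick for their mean; dashed lines mark 1.5-fold. Slc2a3, Slc2a6, Ldhb and Slc16a1 lie to the right at ratios of 1.24 to 1.36, Pdha1 lies to the left at 0.854, and the Gapdh libraries are scattered from 0.121 to 1.25.

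Read side by side, Slc2a6 and Ldhb were above the control mean with the antagonist alone (1.33 and 1.30) and had negative log2 fold changes with the agonist added (-0.18 and -0.12), and Slc16a3 was below it (0.928) and had a positive one (0.090). Slc2a3 (1.36) and Slc16a1 (1.24) were also above the control mean, but had log2 fold changes of -0.0012 (SE 0.05) and 0.0066 (SE 0.04). Slc2a1 was above the control mean (1.04) with a positive one (0.093). These genes were picked after their values were seen, and such signs were not counted over the 33 models. Both comparisons use the same antagonist libraries, so their signs are not independent. The makeup of the cultures also differed in the first comparison. The median ratio to the control mean was 0.288 over 6 fibroblast markers, 5 of them past 1.5-fold lower and Col1a1 at 0.216, it was 1.29 over 8 astrocyte markers, 3 of them past 1.5-fold higher and 1 past it lower, and it was 1.03 over 10 microglial markers, 1 of them past 1.5-fold lower (Tmem119, 0.580). The part of this in the ratios of the glycolysis and lactate genes was not tested. Of the 48 other pathway genes compared, 1 was past 1.5-fold higher (Fbp2) and 2 lower (Emb, the partner of monocarboxylate transporters, at 0.414, and Tktl1 at 0.666), with a median of 1.02, and of the 23 HIF genes 1 was lower (P4ha2, 0.640), with a median of 0.987.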

How the data were processed

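Per the methods of the study and the submitters' processing notes, the authors aligned paired-end reads to the mouse genome (mm10) with HISAT2 and counted them per gene with featureCounts 1.5.0-p3; the strand setting is not given in the sources used here. The deposited tables hold raw counts per gene, FPKM, and counts normalised by the authors between libraries (a signal scaled by size factors), which were used as deposited. The authors' own comparisons, stored beside them as log2 fold changes with raw and adjusted p-values, were not used. The control libraries are no samples of this series, and their per-library columns were not used. The authors' control mean was the one control value taken.

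Counts of the 8 libraries were analysed with edgeR 4.0.16 in R 4.3.3: filterByExpr (minimum count 10), TMM scaling, a quasi-likelihood F test without covariates, and Benjamini-Hochberg adjustment over all 18756 genes tested. P-values are two-sided. Standard errors were derived from the F statistics, with a common biological coefficient of variation of 5.28%. The procedure was tested on simulated data. Ratios to the control mean were taken for genes with a mean of at least 10 normalised counts over both group means. Libraries of a pair differed by 3.78 to 9.32 times the counting noise expected, so none was a copy of another. Gene coordinates are those of the deposited tables; 32 of 33 models have the same ones in GENCODE M21 (GRCm38). Of the 33 models, 14 share at least 10% of their 31-base words with other genes, 13 overlap an exon on the opposite strand and 5 on the same strand, so their counts are less certain. Promoter sequences are from RefSeq (GRCm38.p6). All 32 member genes are named; of the other lists, called genes are named or otherwise the 3 with the smallest p-values, and further genes were named after their values were seen. The members and lists were chosen with earlier results of these data known. The alternatives were DESeq2 1.42.0, its size factors, no low-count filter, the replicate block and leaving out each library.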

Additional observations from a re-analysis of the deposited data

Results flagged for a closer look

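In 4 of the 66 groups of 4 libraries examined, the gap of 1 library to the nearest of the other three took 0.845 to 0.945 of the range of the group, past the critical value of Dixon's test for 4 values; chance gives about 1 in 20 such groups. Hk1 had 157.6 CPM in antagonist library 2, where the others had 154.3 to 154.5 CPM. In dual library 4, Gpi1 had 348.7 CPM (372.8 to 377.3 in the others), Pfkfb4 had 21.2 CPM (25.8 to 26.3) and Hif1a had 335.8 CPM (299.8 to 303.1).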

How the results depend on the processing

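Among the glycolysis and lactate models, the second Aldoa model had the fewest counts. Nothing here separates cell number from RNA per cell, and the control mean has no error.

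Over all genes, the 39 calls became 381 in the DESeq2 Wald test, 366 without the low-count filter and 0 to 172 on leaving out single libraries (0 without antagonist replicate 4 or dual replicate 3, with 1802 and 2092 genes at an unadjusted p-value under 0.05 in edgeR, 5 and 6 without antagonist replicates 2 and 3, and 172 without antagonist replicate 1). Past 1.5-fold, 1 call became 0 in DESeq2, 28 without the filter and 0 to 13 on leaving out single libraries. Of the glycolysis and lactate models, 0 were called, against 2 in DESeq2, 1 without the filter and 0 to 1 on leaving out single libraries (1 without antagonist replicate 1). The causes were not tested. Their median log2 fold change of -0.0073 ranged from -0.029 to 0.0058 and was positive without antagonist replicate 3 or dual replicate 2 or 4. Against the control mean, 0 past 1.5-fold became 6 at 1.2-fold, a threshold chosen after seeing the data, and 0 to 1 on leaving out single libraries (Gapdh, at 0.610 without antagonist replicate 4). The median ratio was 1.06 with each library left out and 1.05 after division by the median ratio of all genes.

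With the replicate number as a block, 17 genes and 0 of the models were called. Same-numbered libraries did not deviate together (correlations of -0.053 to 0.041 over 4 pairs, and 1 of 4 antagonist libraries correlated best with its own number), so the numbers were not taken as pairs.

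The sign of the log2 fold change turned for 11 models, none of them called, on leaving out single libraries: the second Aldoa model (-0.085 to 0.31), Eno2 (-0.0051 to 0.053), G6pdx (-0.018 to 0.0035), Gpi1 (-0.035 to 0.0045), Hif1a (-0.036 to 0.018, and -0.00026 without the filter), Hk2 (-0.0052 to 0.020), Pdk1 (-0.036 to 0.018), Pdk4 (-0.078 to 2.8e-05), Pfkfb4 (-0.052 to 0.053), Slc16a1 (-0.029 to 0.042) and Slc2a3 (-0.051 to 0.027). It kept its sign for the other 22 over the 12 alternatives.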
